A study of Mus musculus with 11 samples.

Results

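The peaks described here are the places on mouse chromosome 7 where DNA was recovered with Xist RNA above background. They are all chromosome 7 peaks of 6 autosomal peak lists on the genome build mm9, apart from those that overlap 66.4 to 67.5 Mb or 149.6 to 150.9 Mb, which were left out by rule. That gave 1447 peaks of 19818 on all 19 autosomes, and 55 further chromosome 7 peaks lay in the 2 windows left out. The chromosome, its distal block and its stretches were chosen by the positions, number and length of these same peak calls. These and the enrichments are therefore given as description. Tests were run only on the difference between days in number and length. The chromosome was chosen with those values known, so the tests lend no independent support.

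Xist is the long noncoding RNA that spreads over the X chromosome it is transcribed from in female mammals and recruits the factors that silence it. It is made as X inactivation begins in the epiblast and is kept on in female somatic cells, whereas male somatic cells normally make little of it. RNA antisense purification followed by sequencing (RAP-seq) captures Xist from crosslinked chromatin with biotinylated antisense probes and sequences the DNA that comes with it. A peak is a region where that DNA exceeded the background of the peak caller, and it shows contact or proximity in a population of cells, not the effect on a gene.

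The labels list 11 samples, of which 6 are Xist pulldowns with a peak list each and 5 are inputs. Female epiblast-like cells (EpiLCs) gave 2 pulldowns on day 2 of differentiation (D2) and 2 on day 4 (D4), and mouse embryonic fibroblasts (MEFs) gave 1 from female and 1 from male cells. EpiLCs were derived from embryonic stem cells held in LIF with the inhibitors CHIR99021 and PD0325901, and were differentiated in medium with bFGF and Activin A. MEFs were grown in serum, no further agent was added to any sample, and strains, clones and alleles are not given in the labels. The replicate 1 (R1) pulldowns of both days are earlier data analysed again, and the replicate 2 (R2) pulldowns are not described that way. Nothing in the labels says whether R1 and R2 came from separate cultures, so the spread between them may be technical. Without read counts in the lists, the depth of each library is unknown. The lists also hold no expression values by which the labelled cell types could be checked.

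The 6 lists differed widely in length. Over all autosomes the D2 lists held 8227 (R1) and 7544 (R2) peaks, the D4 lists 1553 (R1) and 1148 (R2), the female MEF list 1020 and the male MEF list 326. Chromosome 7 contributed 535 and 527 peaks for D2, 140 and 109 for D4, 117 in the female MEF list and 19 in the male. The D2 lists stood far above the D4 lists, and the male MEF list was the shortest on this chromosome as on the others together.

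Set against the other 18 autosomes of the same list, chromosome 7 was close to average at D2 and denser in the other female lists. It held 3.64 and 3.59 peaks per Mb in the D2 lists, which was 1.03 and 1.11 times the density of the other autosomes. The ratio was 1.47 and 1.56 at D4, 1.92 in the female MEF list and 0.915 in the male. Among the 19 autosomes this placed chromosome 7 at rank 8 in both D2 lists, at ranks 7 (R1) and 5 (R2) for D4, 3 in the female MEF list and 11 in the male. By covered length per Mb the ratios were 1.09 and 1.16 at D2, 1.82 and 1.66 at D4, 1.14 in the female MEF list and 0.764 in the male, so the female MEF excess was one of peak number more than of length. These densities average over the whole chromosome. Of the D4 members, 39.3% (R1) and 42.2% (R2) lay in its last 1.602 Mb, and 43.6% of the female MEF members lay in 1 run of 1330 kb, both described below. The ratios without these places were not computed.

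The authors' fold enrichment of a peak, its signal over the caller's background, lay in a narrow range. The median fold of the D2 lists was 2.61 and 2.79, that of the D4 lists 2.77 and 2.85, and it was 2.88 in the female MEF list and 2.91 in the male. The highest single values among members, with the left-out windows not counted, were 4.76 and 5.31 at D2, 3.33 and 4.14 at D4, 3.34 in the female MEF list and 4.63 in the male. A stricter level, a −log10 q of at least 2, was reached by 69 and 53 members for D2, 13 and 9 for D4, 4 in the female MEF list and 3 in the male. These members were 12.9% (R1) and 10.1% (R2) of the chromosome 7 peaks at D2, against 13.3% and 10.4% on the other autosomes. At D4 they were 9.29% and 8.26%, against 10.5% and 7.15%. The share was 3.42% against 5.22% in the female MEF list and 15.8% against 15.6% in the male. Most peaks therefore lay between a −log10 q of 2 and the level at which the lists stop, on chromosome 7 as on the other autosomes. The weakest chromosome 7 member of each list had a −log10 q of 1.30 to 1.47.

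Peaks differed more in length than in enrichment. The median length was 4064 and 3693 bp at D2, 3306.5 and 2580 bp at D4, 5148 bp in the female MEF list and 537 bp in the male. Peaks of 50 kb or more numbered 13 and 9 for D2, 2 and 1 for D4 and 0 in both MEF lists. These few long peaks made up 1844 kb of the 5271 kb covered in D2 R1 and 994 kb of the 4028 kb in D2 R2. Female MEF peaks were of middle size instead, and the 32 peaks of 10 to 50 kb held 66.7% of the covered length in that list. No male MEF peak reached 5 kb.

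**Figure D1:**
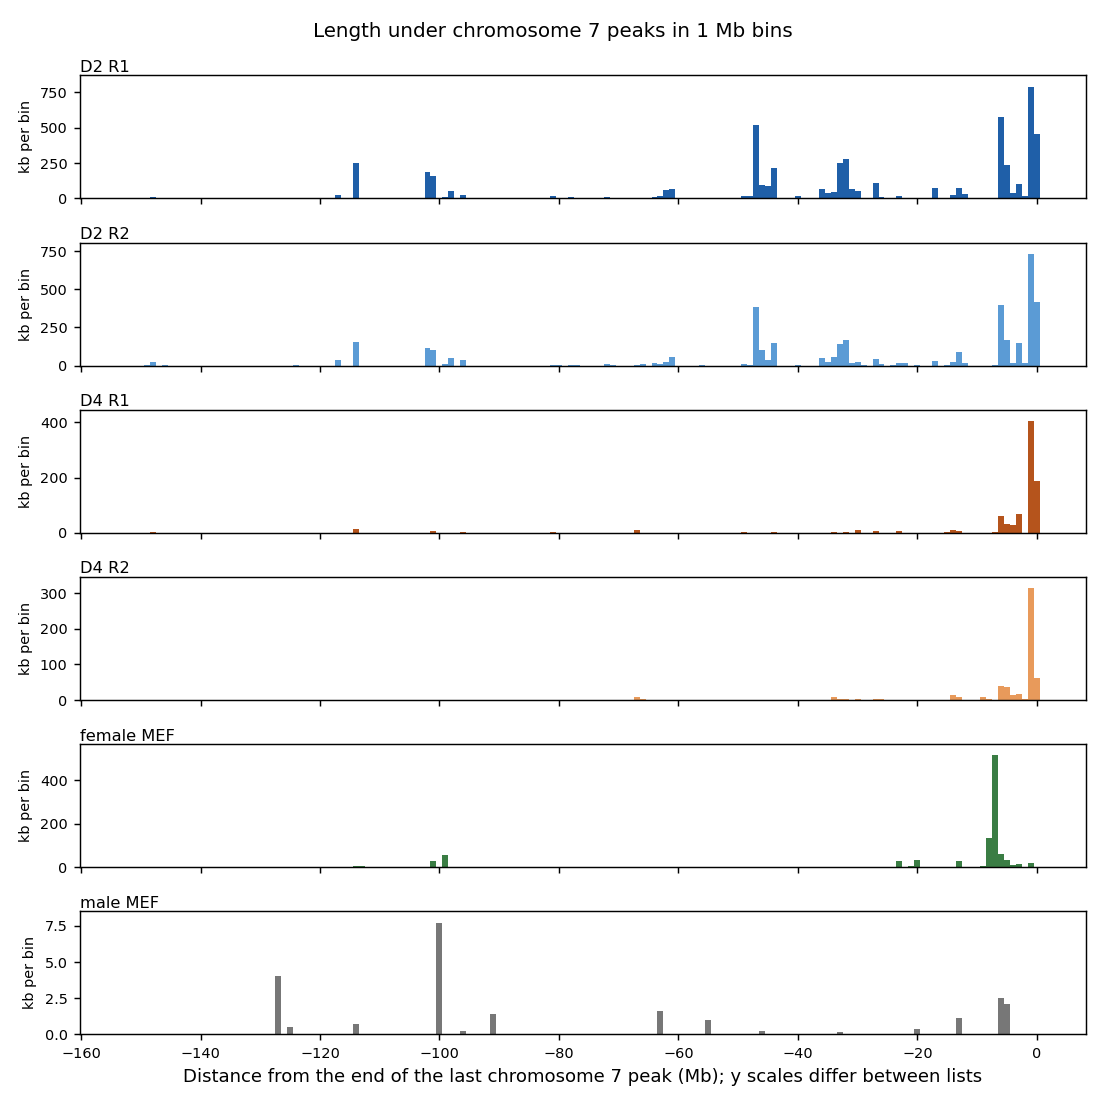
Length under chromosome 7 peaks (kb) in bins of 1 Mb, 1 panel per list, against the distance in Mb from the end of the last chromosome 7 peak, with a separate vertical scale in each panel. D2 peaks form several groups along the chromosome, D4 peaks gather at the distal end, and the tallest female MEF bin, with 515 kb, lies several Mb before that end.

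The peaks were clustered along the chromosome. Of 153 bins of 1 Mb, 77 held no member in any list, while 58 and 61 bins held members for D2, 26 and 27 for D4, 22 in the female MEF list and 14 in the male. Before 38 Mb there were 17 and 14 members in the D2 lists, 1 in each D4 list, 0 in the female MEF list and 2 in the male. The 5 fullest bins held 49.7% and 52.0% of the covered length at D2, against 85.5% and 84.8% at D4, 80.4% in the female MEF list and 75.5% in the male. The male list has only 19 peaks and at most 2 in a bin, so a high value of this share also arises in a short, scattered list. The bin with most peaks was 146 to 147 Mb in both D2 lists (37 and 45 peaks), 151 to 152 Mb in both D4 lists (38 and 34) and 145 to 146 Mb in female MEFs (39).

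The bin profiles of covered length were more alike among the EpiLC lists than between them and the female MEF list. Over the 153 bins, of which many are empty in both lists of a pair, the D2 lists had a Pearson r of 0.98 and a Spearman rho of 0.90, and the D4 lists had 0.97 and 0.58. Between a D2 and a D4 list, r ranged from 0.70 to 0.83 and rho from 0.52 to 0.60, so that by rank the D4 lists were no more alike than D2 R2 and D4 R1. Between each EpiLC list and the female MEF list, r lay between 0.04 and 0.05 and rho between 0.35 and 0.44. Without the 3 bins that hold the distal end, the D2 pair had an r of 0.98 and the D4 pair 0.84. Between a D2 and a D4 list, r then fell to between 0.53 and 0.59. Between each EpiLC list and the female MEF list it was then 0.05 to 0.13. These values describe bins of 1 chromosome that share mappability and base composition, and bins are not independent replicates.

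The comparison of D2 with D4 asks how Xist contacts on this chromosome differ as differentiation proceeds. The mean number of members was 531 ± 5.66 (SD, n = 2) at D2 and 124.5 ± 21.9 (SD, n = 2) at D4, a ratio of 4.27. The ratio was 3.82 within the R1 lists and 4.83 within the R2 lists, so both numbers gave the same direction and the days did not overlap. Covered length was 4650 ± 879 kb (SD, n = 2) at D2 and 717 ± 232 kb (SD, n = 2) at D4, a ratio of 6.48. A two-sided exact permutation test over the libraries gave p = 0.333 for the difference of 406.5 members and for that of 3932 kb, and 0.333 is the smallest p that 2 against 2 libraries allow. The other 18 autosomes had larger ratios, 5.99 for number and 10.1 for length.

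The number of peaks depends on how many each list holds in all, and depth is unknown. When each female list was cut to its 1020 strongest peaks by −log10 q, the length of the shortest, chromosome 7 held 64 and 74 peaks at D2 and 85 and 100 at D4, which reversed the direction of the difference in number. These cut lists covered 1737 and 1073 kb for D2 against 565 and 535 kb for D4, so the direction of the difference in length was kept.

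**Figure D2:**
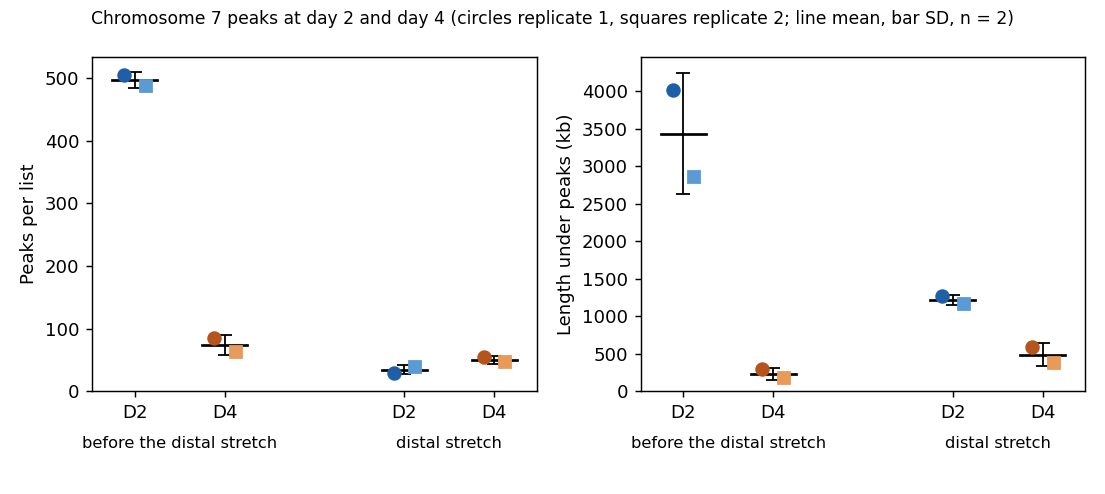
Number of chromosome 7 peaks (left) and length under them in kb (right) at D2 and D4, before the distal stretch and in it; circles are replicate 1, squares replicate 2, lines the mean and bars the SD (n = 2). In the distal stretch the D4 lists hold 55 and 46 peaks against 29 and 39 at D2, while their covered length is lower than at D2 in both replicates.

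The difference between the days was uneven along the chromosome. The distal stretch runs from 150.9 Mb, the end of a window left out, to the last peak at 152.50 Mb. Before it, the D2 lists held 506 and 488 members and the D4 lists 85 and 63, a ratio of means of 6.72, and covered length was 4009 and 2860 kb against 290 and 175 kb, a ratio of 14.8. In the distal stretch, members numbered 29 and 39 at D2 and 55 and 46 at D4, and covered length was 1262 and 1168 kb against 591 and 378 kb, a ratio of 2.51. More but shorter peaks at D4 therefore lay where fewer and longer peaks lay at D2. Only 3 bins of the chromosome held more members at D4 than at D2 in both replicate numbers, and 2 of them, 151 to 152 Mb and 152 to 153 Mb, are this stretch; the other is 85 to 86 Mb.

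Of the 17 bins with at least 10 peaks in both D2 lists, 5 held no peak in either D4 list. The same share of bins on the other autosomes was not counted. Over all autosomes, only 10.4% of D2 R1 and 11.7% of D2 R2 peaks met a D4 peak, so the 5 bins are given as places only. They were 50 to 51 Mb, 91 to 92 Mb, 105 to 106 Mb, 107 to 108 Mb and 135 to 136 Mb. The fullest was 105 to 106 Mb, with 28 peaks over 521 kb in D2 R1 and 26 peaks over 382 kb in D2 R2. It contains the longest D2 region outside the distal stretch, 105550556 to 105661663 (111 kb covered in both lists, fold 2.72 and 2.86). Together the 5 bins held 86 and 75 D2 peaks, with 17.7% and 15.4% of the covered length of those lists. No peak of either MEF list lay in them, but those lists had members in only 22 (female) and 14 (male) of the 153 bins. The bin 120 to 121 Mb was nearly as uneven, with 33 and 37 peaks at D2 and 1 and 3 at D4.

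By contrast, the bin 146 to 147 Mb kept peaks in every list, 37 and 45 for D2, 19 and 14 for D4, 6 in the female MEF list and 2 in the male. Its D2 peaks spanned 574 and 396 kb, its D4 peaks 62.7 and 39.2 kb, and its MEF peaks 60.9 kb in the female MEF list and 2.54 kb in the male. It was the only bin among the 5 fullest of D2, of D4 and of female MEFs alike.

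The distal stretch contains the bin with most covered length in all 4 EpiLC lists, 151 to 152 Mb. Peaks covered 78.8% and 72.9% of its 1.602 Mb at D2, 36.9% and 23.6% at D4, 1.18% in the female MEF list and 0% in the male. It held 24.0% and 29.0% of all chromosome 7 covered length at D2 and 67.1% and 68.3% at D4. The replicates of a day lay within a few points of each other, and the days did not overlap. With the lists cut to 1020 peaks, D2 had shares of 44.2% and 55.8% and D4 of 66.2% and 69.0%, still without overlap. At a −log10 q of at least 2, D2 had 42.7% and 69.2% and D4 had 86.1% and 18.5%, from 3 to 6 distal peaks a list, and the days overlapped.

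**Figure D3:**
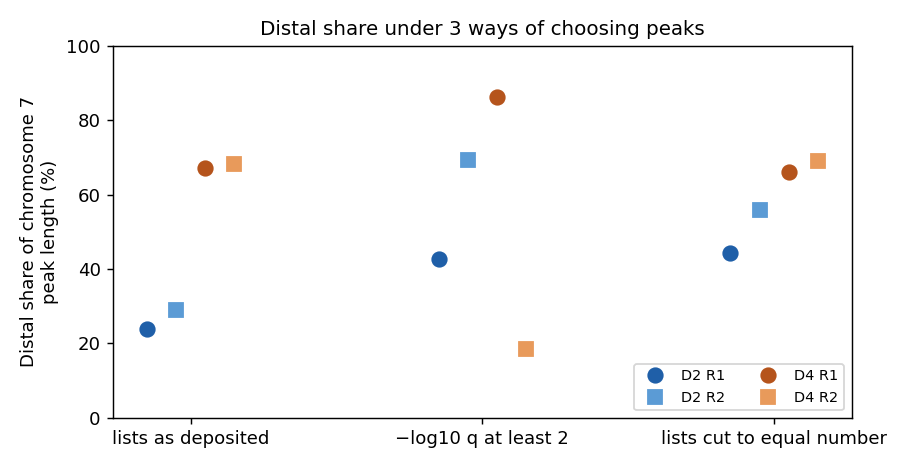
Share of chromosome 7 covered length (%) that lies in the distal stretch, for each EpiLC list under 3 ways of choosing peaks. The D4 lists lie above the D2 lists as deposited (67.1% and 68.3% against 24.0% and 29.0%) and with lists of equal number, but not at a −log10 q of at least 2. With lists of equal number, the D2 shares rest on only 4 (R1) and 6 (R2) distal peaks.

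Distal peaks were long rather than strong. Their median length was 7635 and 9315 bp at D2, 5439 and 3155.5 bp at D4 and 4851 bp in female MEFs, against 3934, 3520.5, 2917, 2437 and 5193 bp for the rest of the chromosome in the same lists. Their median fold was 2.64, 2.79, 2.73 and 2.83 in the EpiLC lists, against 2.61, 2.79, 2.80 and 2.85 for the rest. The gap between neighbouring distal peaks had a median of 5.52 kb in D2 R1, 5.93 kb in D2 R2, 12.1 kb in D4 R2 and 64.3 kb between the 3 female MEF peaks. Before the second window left out, the medians were 16.1 and 17.9 kb for D2 and 53.1 and 86.8 kb for D4.

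The core of the stretch is a block that all 4 EpiLC lists cover without a gap, 151787546 to 151867365 on chromosome 7 (mm9, 79.8 kb). In each list a single peak spans it. In D2 R1 that peak runs from 151728970 to 152436944 (708 kb, fold 2.85, −log10 q 2.32) and is the longest of the 535 members and ranks 3 in length among all 8227 peaks. The D2 R2 peak runs from 151772652 to 151910410 (138 kb, fold 3.08, −log10 q 2.09) and ranks 2 in length of 527. At D4 the R1 peak runs from 151787546 to 151882847 (95.3 kb, fold 3.01, −log10 q 2.00) and the R2 peak from 151772601 to 151867365 (94.8 kb, fold 2.97, −log10 q 1.74). Each is the longest chromosome 7 member of its list, and they rank 6 of 1553 and 4 of 1148 over all autosomes.

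The block stands out more by length than by enrichment. By fold its peaks rank 39 of 535, 41 of 527, 14 of 140 and 25 of 109, in the upper part of each list but not at its top. Peaks covered 100% of the window 151.79 to 151.87 Mb in 3 EpiLC lists and 96.7% in D4 R2. Neither MEF list had a peak in it. At a −log10 q of at least 2 the D4 R2 peak is lost and the mean coverage of the window at D4 is 50%, while both D2 peaks stay.

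**Figure D4:**
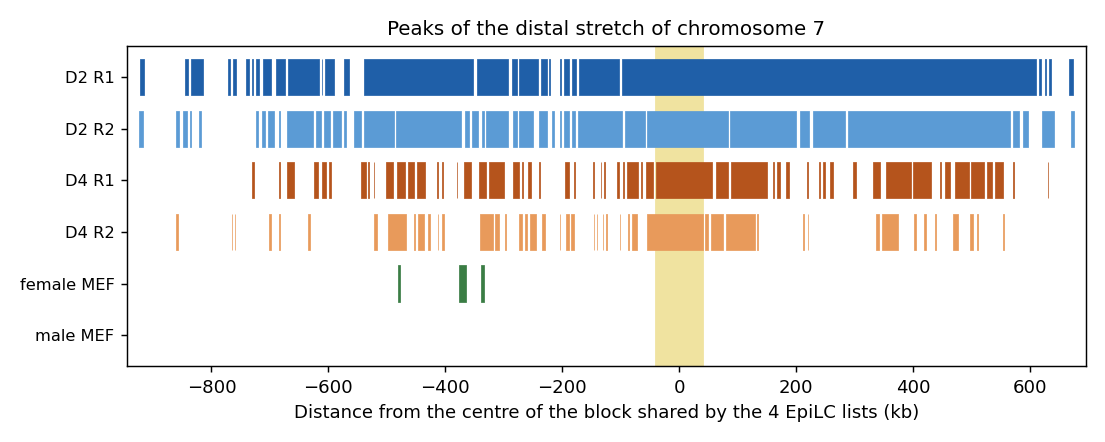
Peaks of the distal stretch in each list, drawn to scale against the distance in kb from the centre of the block shared by the 4 EpiLC lists; the shaded band is that block, 79.8 kb long. D2 peaks join into long bars, D4 peaks are broken into shorter ones except in the block, and the 3 female MEF peaks lie to the left of it.

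Around the block, the other long D4 regions were also distal. The 5 longest regions covered in both D4 lists were the block itself, 151916583 to 151956660 (40.1 kb), 152180699 to 152202392 (21.7 kb), 151344021 to 151358840 (14.8 kb) and 151890356 to 151903227 (12.9 kb). Each lay within a D2 peak of both replicates. Of the 5 longest regions shared by the D2 lists, 4 were distal, 152116020 to 152392499 (276 kb), 151772652 to 151910410 (138 kb), 151915014 to 152027767 (113 kb) and 151343911 to 151454419 (111 kb). The other, at 105550556, is the region named above and is the fourth in length.

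The gene that names this end is Ano1, which encodes a calcium-activated chloride channel of epithelia and smooth muscle. The gene table used here is of another build, GRCm38.p6, so it gives the order of genes and not which peak lies over which gene on mm9. In that order the protein-coding neighbours before Ano1 are Shank2, a scaffold of synapses, Cttn, an actin-binding protein, Ppfia1, a liprin, and Fadd, the adaptor of death receptors. After it come Fgf3, Fgf4 and Fgf15, secreted growth factors of the embryo, then LTO1, Ccnd1, the cyclin of G1 progression, Tpcn2, an endolysosomal ion channel, Smim38, and the receptor genes Mrgprf and Mrgprd. Of the 4162 genes the table lists on chromosome 7, 17 come after Ano1, and 9 of these are protein-coding. Whether the block covers the body or the promoter of Ano1 or of a neighbour was not analysed here.

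Female MEF peaks reached into the distal stretch at 3 places only, 151346407 to 151349419 (3.01 kb, fold 3.01), 151451429 to 151462450 (11022 bp, fold 2.83) and 151489099 to 151493949 (4.85 kb, fold 3.00). None lay beyond the last of these, where the EpiLC lists held 13, 19, 37 and 32 members.

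For comparison, the last 1.602 Mb before the last peak was taken on each other autosome. That length was set by chromosome 7, whose end was chosen from these same calls, so its ranks are description only. No other length was taken on the other autosomes. Chromosome 7 had the most covered length in this terminal stretch of the 19 autosomes in all 4 EpiLC lists, 1262, 1168, 591 and 378 kb. The next was chromosome 4 each time, with 1053, 943, 494 and 377 kb, which in D4 R2 is the same within 2 kb. Over the other 18 the median was 155 and 113 kb for D2 and 0 kb for both D4 lists. As a share of the chromosome's covered length, chromosome 7 was at rank 2 in D2 R1, behind chromosome 15 with 27.9%, and at rank 1 in the other EpiLC lists. In female MEFs it was at rank 5 with 18.9 kb, and chromosome 4 was highest with 560 kb. By number of peaks in the terminal stretch, chromosome 7 was at rank 7 in D2 R1 (29 peaks, against 49 on chromosome 8), at rank 2 in D2 R2 and at rank 1 in both D4 lists. Dense ends also occurred on chromosome 15, with 685 and 576 kb in the D2 lists, and on chromosome 16, with 558 and 492 kb. The end of chromosome 16 held 45.8% and 37.8% of that chromosome's covered length in the D4 lists and no female MEF peak. A dense EpiLC end with little or no female MEF coverage was therefore not confined to chromosome 7.

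Female MEF peaks had their own centre. A run of 51 peaks, each less than 100 kb from the next, extends from 144674743 to 146004765 (1330 kb) and is 48.9% covered. The limit of 100 kb was set after the values were seen. With a limit of 50 kb the longest run has 27 peaks, and with 200 kb it has 51 again; the shares below are for the limit of 100 kb. It held 43.6% of the female MEF members on the chromosome and 65.4% of their covered length. Their folds lay between 2.77 and 3.28 and the median length was 8246 bp. In the same interval D2 R1 and D4 R2 had no peak, D2 R2 had 1 (145931455 to 145933409, fold 2.79), D4 R1 had 1 (145057355 to 145060939, fold 2.94) and male MEFs had none.

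**Figure D5:**
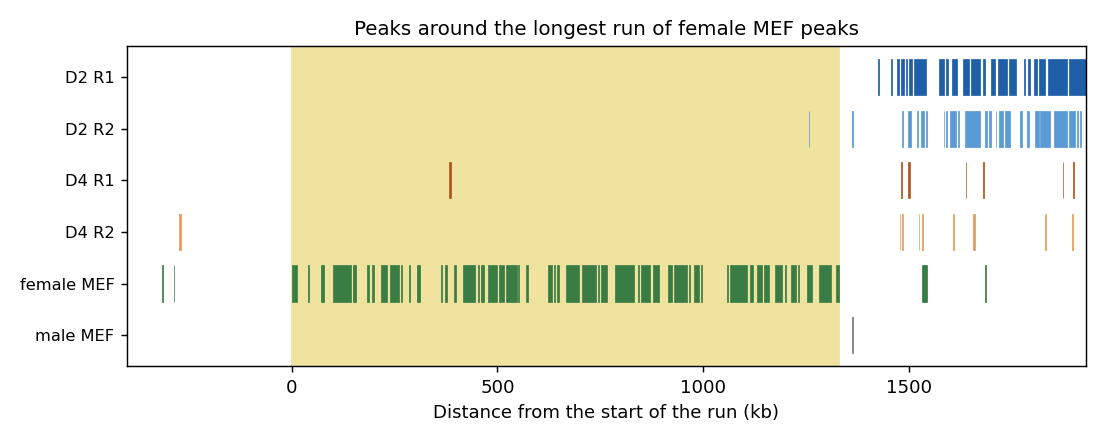
Peaks of each list around the longest run of female MEF peaks, to scale, against the distance in kb from the start of the run; the shaded band is the run, 1330 kb long. The 51 female MEF peaks lie in the band with 1 peak each of D2 R2 and D4 R1, and the dense EpiLC peaks begin after it.

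The EpiLC lists resumed just past the run, and their next peaks started at 146100962 and 146037974 at D2 and at 146156535 and 146152869 at D4. From the end of the run to 149.6 Mb they held 81 and 82 peaks at D2 and 44 and 31 at D4, and female MEFs held 14. The run and the dense EpiLC region therefore lay side by side and hardly overlapped. Only 1 peak of the run reached a −log10 q of 2, so it is made of many weak calls that lie close together, and 1 library supports it. Gene positions on mm9 in the run were not analysed here.

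Bins with at least 3 female MEF peaks and more covered length there than in any EpiLC list joined into 4 stretches. Besides 144 to 146 Mb (53 female MEF peaks, 649 kb), these were 53 to 54 Mb (9 peaks, 57.3 kb), 129 to 130 Mb (9 peaks, 30.0 kb) and 132 to 133 Mb (7 peaks, 31.2 kb). The EpiLC lists were not empty in the smaller 3. At 53 to 54 Mb both D2 lists had 4 peaks and both D4 lists 0, and at 129 to 130 Mb they had 9 and 6 at D2 and 2 and 0 at D4. The stretch 132 to 133 Mb held the only female MEF peak that overlapped a male one, 132426381 to 132441639.

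The strongest female MEF members were spread out. They were 38309820 to 38313223 (fold 3.34, also called in both D2 lists at 2.56 and 2.79), 144979690 to 144985556 (3.28), 53360363 to 53363851 (3.22), 149035921 to 149041986 (3.22, also in both D4 lists at 2.80 and 3.03) and 145641071 to 145643508 (3.21). The 5 longest were 33.7 to 45.9 kb, and 4 of them lay in the run. The other, 146977010 to 147017040 (40031 bp), overlapped peaks of both D2 lists and of D4 R1.

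The share of members found in both replicates of a day lay near that over all autosomes. Of D2 R1 members, 252 of 535 (47.1%) overlapped a D2 R2 peak by at least 1 bp, against 45.3% over all autosomes, and 316 of 527 D2 R2 members (60.0%) overlapped D2 R1, against 59.3%. At D4, 37 of 140 R1 members (26.4%) and 41 of 109 R2 members (37.6%) were shared, against 22.2% and 32.6%. Sharing was highest in the distal stretch, at 75.9% and 89.7% of distal members at D2 and 43.6% and 58.7% at D4, against 45.5%, 57.6%, 15.3% and 22.2% for the members before it. Distal peaks were also longer and closer together, and the part of peak length in this was not tested.

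Regions covered in both D2 lists numbered 338 (2737 kb), of which 38 were distal, and regions covered in both D4 lists numbered 46 (308 kb), of which 32 were distal with 90.1% of the length. Of the 46 D4 regions, 38 (82.6%) overlapped a region of both D2 lists, against 68.9% over all autosomes. All 32 distal ones did, in a stretch of which D2 peaks covered 78.8% and 72.9%. Of the 14 others 6 did (42.9%), below the share over all autosomes. Counting a peak of either D2 list, 43 of 46 (93.5%) were met, against 83.3%, and by single lists 115 of 140 D4 R1 members (82.1%) and 86 of 109 D4 R2 members (78.9%), against 73% and 68.3%. Conversely, 72 of the 338 D2 regions (21.3%) overlapped a peak of either D4 list, against 15.6%. They were 24 of 38 distal regions (63.2%) and 48 of 300 others (16%), so the excess lay in the distal stretch. By single lists, 69 of 535 D2 R1 members (12.9%) and 87 of 527 D2 R2 members (16.5%) met a D4 peak, against 10.4% and 11.7%. In the lists as deposited, most D4 calls thus lay where D2 had calls, and the D2 lists are far longer. With the female lists cut to equal number, 44.4% of D4 regions met a D2 region, and at a −log10 q of at least 2 the only D4 region left met none. Leaving out D4 R1 or D4 R2 gave 59.6% and 62.9%, counted over all 109 and 140 members of the D4 list that was left and not over shared regions.

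The 14 D4 regions before the distal stretch fell into few places. There were 3 each in the bins from 146, 147 and 148 Mb, 2 in the bin from 149 Mb and 1 each in those from 51, 85 and 87 Mb. A group of 5 lay between 148974909 and 149051272, and it included the longest of the 14, 149033125 to 149042795 (9.67 kb, D4 fold 2.80 and 3.03). Of these 5, 4 overlapped a D2 R1 peak, none overlapped a D2 R2 peak, and 3 overlapped a female MEF peak. The 2 D2 replicates therefore differed at a place where both D4 lists had calls; this group was singled out after its values were seen.

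Regions of D4 without D2 calls were few. Only 3 of the 46 overlapped no peak of either D2 list, 147507850 to 147509067 (fold 2.91 and 2.87), 149049948 to 149051272 (2.80 and 2.88) and 85736487 to 85737513 (2.71 and 2.93). When overlapping peaks of the 4 EpiLC lists were joined, 765 regions resulted. Of these, 509 (66.5%) were called in 1 library only, against 68.6% over all autosomes, 177 (23.1%) in both D2 lists and neither D4 list, against 23.2%, and 19 (2.48%) in all 4, against 1.98%. A further 45 (5.88%) had a D4 call and no D2 call, against 6.21%. These shares lay near the background.

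The strongest D2 sites lay outside the distal stretch. The region 91838037 to 91838300 had the highest fold on the chromosome in both D2 lists, 4.76 and 5.31, with −log10 q of 6.99 and 7.06, and no peak in any other list. Next were 120512470 to 120518279 (3.90 and 3.83, and 3.09 in D4 R2), 91753603 to 91754732 (3.45 and 3.85), 128178105 to 128178770 (3.85 and 3.70) and 112630307 to 112630631 (3.08 and 3.81). As shared regions they were 0.264 to 5.81 kb long, but the peaks themselves reached 14692 bp in D2 R1 (at 91753603) and 7529 bp in D2 R2 (at 120512470), above the medians of those lists. Apart from the peak in D4 R2 none had a call at D4 or in MEFs, so the strongest and the longest D2 regions were different places, and 4 of the 5 longest D2 regions had calls in both D4 lists.

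The D4 region of best mean rank by fold was 146575178 to 146575382 (3.16 and 3.11), which both D2 lists called as well at 2.66 and 3.07. The next 4 were all distal, among them the block at rank 3. The region 87460550 to 87460769 had the highest fold of any D4 member, 4.14 in D4 R2, but only 2.77 in D4 R1, and both D2 lists covered it at 2.52 and 2.86.

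Few female MEF peaks of chromosome 7 coincided with EpiLC peaks. Of 117 female MEF members, 25 (21.4%) overlapped a peak of any EpiLC list, against 49.7%, 11 (9.40%) a region of both D2 lists, against 26.9%, and 6 (5.13%) a region of both D4 lists, against 8.04%. The run weighs on these shares, since without its 51 peaks the counts were 24, 11 and 6 of 66, or 36.4%, 16.7% and 9.09%. In the other direction, 16 of 338 D2 regions (4.73%) and 6 of 46 D4 regions (13.0%) met a female MEF peak, against 6.96% and 30.1%. With 1 female MEF library, no test of these differences was made.

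Covered in all 5 female lists were 3 segments of chromosome 7, 151346407 to 151349419 (3.01 kb), 151490778 to 151492792 (2.02 kb) and 146962865 to 146962938 (74 bp). They make up 5.10 kb, of 91 such segments with 1022 kb on all autosomes. The first 2 lie in the distal stretch and before the block, and their folds ranged from 2.72 to 3.01 over the 5 lists for the first and from 2.75 to 3.00 for the second. Leaving out D4 R2 gave 11 segments, and leaving out D2 R2 or D4 R1 gave 5 each.

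The male MEF list serves as a reference for fibroblasts, since male fibroblasts are not expected to coat a chromosome with Xist. The labels hold no male EpiLC sample, so the background of the EpiLC lists has no such reference. The 19 chromosome 7 peaks of the male list covered 23.9 kb in all and none lay in the distal stretch or in the female MEF run. Its strongest peak, 52809877 to 52813947, had a fold of 4.63, above every female MEF peak on the chromosome, and no call in a female list. Of the 19, 9 (47.4%) overlapped a D2 peak, against 40.5% over all autosomes, and 1 (5.26%) a D4 peak, against 6.44%. Counting any EpiLC list the 9 were the same number, against 42%. Likewise 1 (5.26%) overlapped a female MEF peak, against 5.52%, which is 1 of the 117 female MEF members (0.855%), against 1.67%. Male peaks met 3 of the 338 D2 regions (0.888%), against 1.23%, and none of the 46 D4 regions, against 0.498%. Overlaps with D2 peaks included 132916055 to 132916273 (male fold 3.84, D2 R2 2.71) and 38600692 to 38601228 (2.95, with 2.68 and 2.96 at D2). Single strong peaks thus occurred in the male list too. Long or closely spaced ones did not, but a list of 19 peaks from 1 library could hardly show close spacing. Nor would it be likely to have a peak in any given short stretch.

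The left-out windows border the members closely at the distal side. The second window held 25 and 21 peaks for D2, 1 and 4 for D4, 2 in the female MEF list and 0 in the male, with folds from 2.37 to 3.12. The nearest members after it started at 150905273 and 150903425 at D2 (fold 2.42 and 2.72), 151097254 and 150966956 at D4 (2.83 and 3.38) and 151346407 in female MEFs (3.01). The first window held 1 peak of D4 R1 (fold 2.76) and 1 of female MEFs (fold 4.15), and no member lay within 3456 kb of it. That female MEF peak was stronger than every female MEF member, the highest of which had a fold of 3.34.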

How the data were processed

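The tools named are MACS2 2.2.7.1, Bowtie2 2.2.9, Trim Galore 0.4.1, bedtools 2.26.0, SAMtools 1.9 and Picard, with build mm9, per the submitters' processing notes. Their settings and the input behind each list are not given in the sources used here. No day is given for the 3 inputs of EpiLCs. Peaks were deposited per library, so nothing was pooled. The deposited lists give a fold enrichment, a linear ratio that is the authors' own value for each peak. They also give the authors' −log10 p and −log10 q, and a deposited score that equals the −log10 q times 10, rounded down, and was not used. Within a list, these values served to rank, filter or describe its peaks. Depth is unknown, and a deeper library gives more peaks.

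Chromosome 7, its windows and stretches and the lists of regions were chosen with earlier results of these data known. Densities used the extent from the first to the last peak of any list. Overlap meant 1 bp or more. A region of both lists of a day is the segment that both cover. Regions were named by rule: the windows, the 5 best by mean rank of fold and the 5 longest per day or list, overlaps of female with male MEFs, segments of all 5 female lists and D4 regions without D2 peaks. The distal stretch, the female MEF run with its gap limit of 100 kb and the group near 149 Mb were set after values were seen. Days were compared by two-sided exact permutation tests over libraries. Python 3.11.15, pandas 2.3.3, numpy 2.4.6 and scipy 1.17.1 were used, and the interval code was tested on simulated data. No mm9 genome or annotation was used here, so peak sequences and gene overlaps are not given, and planned gene lists were not counted. RefSeq (GRCm38.p6) supplied gene order only. Alternatives were list length, a −log10 q minimum of 2, joining within 10 kb, overlap of at least 50%, left-out replicates and the replicate block.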

Additional observations from a re-analysis of the deposited data

How the results depend on the processing

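Of 94 alternative values for 24 results, 1 reversed, 37 moved beyond the spread, interval or ratio set as a limit, and 56 did not. For the tested differences between days the 56 count direction only, and their size changed. No result passed a test threshold in any setting, since 2 against 2 libraries cannot. The difference in number, 406.5 more members at D2, became -23.5 with lists of equal number, and leaving out each EpiLC library gave 391 to 422; it was 240 with peaks within 10 kb joined and 50 at a −log10 q of at least 2. The difference in covered length, 3932 kb, was 855 kb with lists of equal number, 1252 kb at that q and 3310 to 4554 kb on leaving out a library. With the replicate number as a block the differences were the same 406.5 members and 3932 kb and the exact sign-flip p was 0.5, the smallest that 2 pairs allow; only R1 and R2 are shared as numbers, and whether they pair cultures is not stated. The causes of the changes below were not tested. Density relative to the other autosomes moved on joining peaks within 10 kb (D2 1.01, D4 1.34), by covered length (D4 1.74, female MEF 1.14) and at a −log10 q of at least 2 (female MEF 1.26). At that level, which keeps 3 to 69 members a list, the distal share was 55.9% at D2, 52.3% at D4 and 0% in female MEFs, the block was covered by 50% at D4, D4 regions met D2 regions in 0% (1 region), female MEF members met D2 regions, D4 regions and male peaks in 0%, replicates shared 30.4% and 49.1% at D2 and 7.69% and 11.1% at D4, the female MEF run shrank to 1 peak, MEF-dense stretches fell to 0 and segments of all 5 female lists to 0. With lists of equal number the D2 distal share was 50.0%, D4 regions met D2 regions in 44.4%, and segments of all 5 lists were 0. Leaving out a library gave 59.6% to 93.5% for D4 regions at D2 and 3 to 11 segments of all 5 lists. Where a D4 library was left out, all members of the other D4 list were counted in place of D4 regions. With an overlap of at least 50%, replicates shared 28.6% and 45.4% at D2 and 13.6% and 25.7% at D4, and female MEF members met male peaks in 0%. Chosen after seeing the data were a 2 Mb end (female MEF distal share 2.03%), gaps under 50 kb (run of 27 peaks), the distal shares under other lists and female MEF sharing without the run (16.7% with D2). Depth is unknown, so the absence of a peak does not show the absence of Xist.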
